A study of Mus musculus with 16 samples.

Results

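The livers described here are the 8 of 16 in which Gpnmb, a transmembrane glycoprotein gene of macrophages that take up lipid and debris, had a deposited intensity above 1000. They came from 5 Lactb transgenic and 3 FVB wildtype animals, of 7 transgenic and 9 wildtype animals in all. The animals were therefore chosen by a measured value, with a lower limit only. The question is how transgenic and wildtype livers differed when this macrophage gene was above that limit, at levels that still varied between animals. All were males killed at 23 weeks of age, after a chow diet with 4% fat until 11 weeks and with 6% fat from then on. FVB is the inbred strain of the wildtype animals. The labels give neither the promoter that drives the transgene nor the number of transgenic lines. Each animal's total liver RNA, copied into biotin-labelled cRNA, was hybridised to 1 Illumina bead array.

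Lactb is a serine beta-lactamase-like protein that forms filaments in the space between the mitochondrial membranes. Hepatocytes also carry the enzymes on which the leading differences fall. Glutathione S-transferases join glutathione to reactive compounds, and many of their genes are switched on by NRF2, a transcription factor that responds to oxidants and electrophiles. Members of the 17-beta-hydroxysteroid dehydrogenase family, Hsd17b13 and Hsd17b11, sit on the surface of lipid droplets. The major urinary proteins (Mup genes) are secreted pheromone carriers whose liver expression depends on growth hormone and is high in males.

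Gpnmb was 1382.7, 2351, 2943, 2344.2 and 4441.3 in transgenic replicates 3 to 7, against 1348.5, 2278.3 and 3333.2 in wildtype replicates 4, 5 and 6. The ranges of both genotypes overlapped, and these values are the ones that chose the animals. Just below the limit stood wildtype replicate 7 at 868.5 and wildtype replicate 3 at 567.6, and just above it wildtype replicate 4 at 1348.5 and transgenic replicate 3 at 1382.7. The other 6 animals lay between -24.6 and -0.9, with no signal above background.

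**Figure D1:**
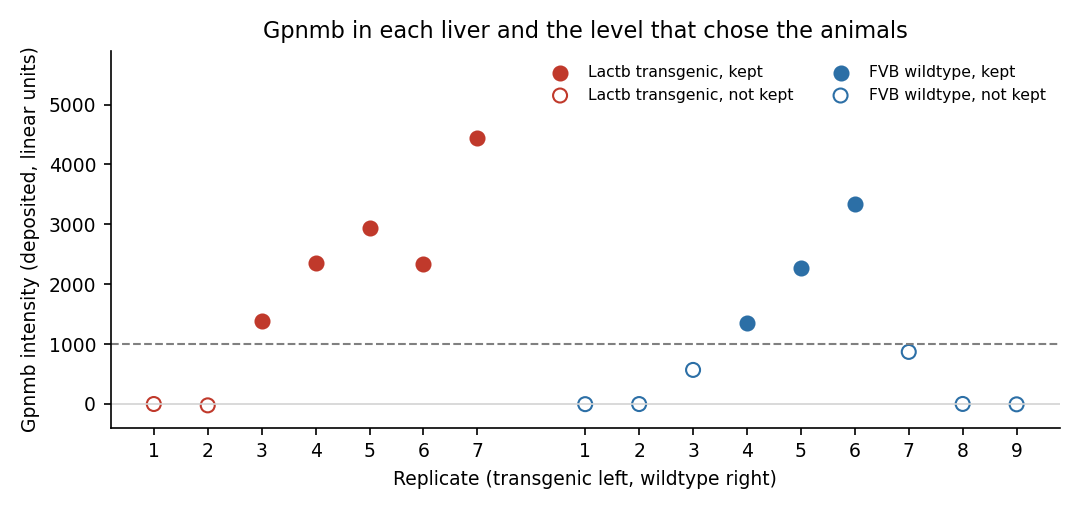
Deposited Gpnmb intensity (linear units) in each of the 16 livers, transgenic on the left and wildtype on the right, with the dashed line at 1000. Filled points are the 5 transgenic and 3 wildtype livers kept, and the open wildtype points at 868.5 and 567.6 are the nearest ones left out.

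The 8 arrays were similar in depth of detection. Between 10716 and 11359 probes were detected on the transgenic arrays, against 10690 to 11564 on the wildtype arrays (exact permutation test over 56 assignments, two-sided, p = 0.5, adjusted over 3 tests 0.75). Any pair of arrays correlated at 0.981 to 0.992 across tested probes, with a median of 0.987 within a genotype and 0.988 between genotypes. The first principal component held 32.2% of the variance and the genotypes overlapped on it (exact permutation p = 0.786). Wildtype replicate 4 (-16.8) and transgenic replicates 3 (-15.6) and 4 (-9.9) lay apart from the rest (4.6 to 16.5) on this component. Wildtype replicate 4 and transgenic replicate 3 also had the lowest Gpnmb and the fewest probes detected. What the component follows was not tested. No probe could be named Lactb, so the genotype labels stand without a reading of the transgene product.

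Markers of macrophages overlapped between the genotypes, and their summed level, which includes Gpnmb, the gene that chose the animals, was not tested. Of 30 listed macrophage markers 10 were on the array by name and 9 were measured, with Fabp5 not detected, and their summed intensity was 9525.4 to 15980.4 in transgenic livers, against 9510.9 to 14105.1 in wildtype livers. In the other 8 livers the sum was 1439.7 to 6138.2. Of the 9, which include Gpnmb itself, 7 were higher and 2 lower in transgenic livers, with a median difference of 0.06 on the log2 scale. Without Gpnmb 6 of 8 were higher, and leaving out 1 animal moved their median over -0.05 to 0.16. Lyz2, the lysozyme of myeloid cells, was 2382.9, 2570.2, 3008.4, 4045.7 and 4565.6 in transgenic livers, against 2695.8, 3917.6 and 3108.4 in wildtype livers. Cd68, a lysosomal protein of macrophages, was 222.9, 171.5, 172.7, 132.4 and 274.9 in transgenic livers, against 240.7, 178.8 and 160.4 in wildtype livers. In both genes the wildtype livers lay inside the transgenic range. The complement genes C1qa and C1qb, the growth factor receptor gene Csf1r, the elastase gene Mmp12, the tetraspanin gene Cd63 and the osteopontin gene Spp1 had differences between -0.01 and 0.20, each smaller than its SE.

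Across all probes the genotypes could not be separated at the threshold. A difference here is transgenic minus wildtype on the log2 scale after background correction and quantile normalization, tested with limma, and a probe was called at a Benjamini-Hochberg adjusted p under 0.05. Of 11807 probes tested, 0 were called (0%), with a lowest adjusted p of 0.272 in limma. At an unadjusted p under 0.05 there were 394 probes (3.34%), of which 194 were higher and 200 lower in transgenic livers. This threshold passes a share of 0.05 on average when no probe differs, so 3.34% is no excess. All 5 transgenic livers lay above all 3 wildtype livers for 137 probes (1.16%) and below them for 180 (1.52%). Most differences were small as measured. For 99.1% of probes the 95% interval of the difference lay within 2-fold either way, for 93.9% within 1.5-fold, and only 4 probes had a difference over 1 on the log2 scale in either direction. The background correction added an offset of 16, which compresses differences of dim probes and narrows their intervals. For the dim genes Hivep2 (0.35) and Taok3 (-0.38), the alternatives given below ran over 0.083 to 0.94 and -0.97 to -0.27. The median difference over all probes was 0.0026, and 50.9% of probes had the higher mean in transgenic livers.

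**Figure D2:**
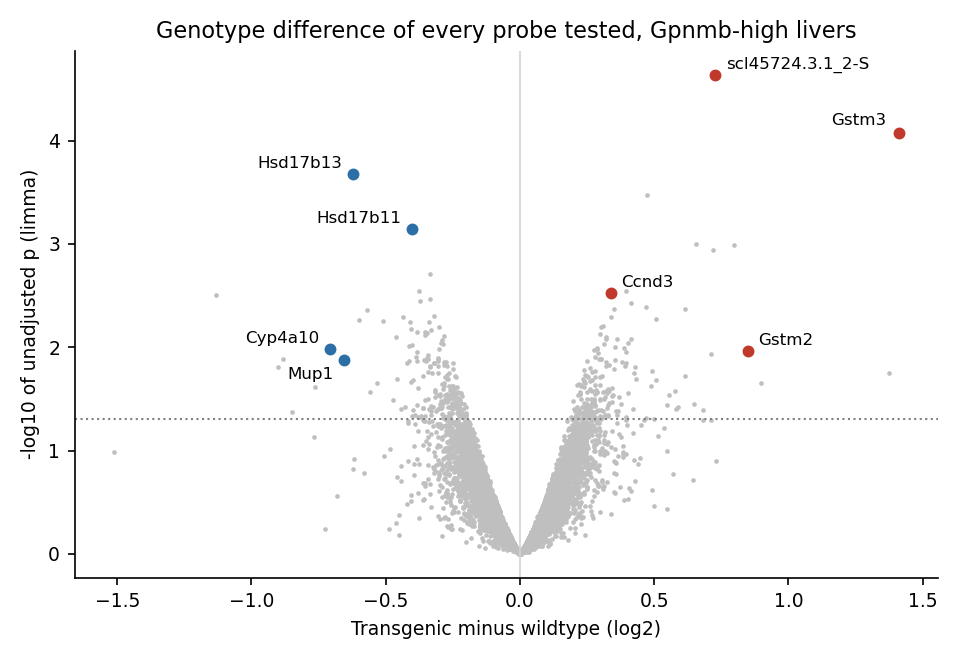
Difference between transgenic and wildtype livers (log2, transgenic minus wildtype) against -log10 of the unadjusted limma p for 11807 probes in the 8 Gpnmb-high livers, with the dotted line at 0.05. Gstm3 has a difference of 1.41 and Hsd17b13 of -0.62, and no probe passed the adjusted threshold.

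The leading named gene was Gstm3, a mu-class glutathione S-transferase. Its intensity was 1961.1, 1068, 2155.4, 2522.7 and 2090.2 in transgenic livers, against 596.4, 760.3 and 833.9 in wildtype livers. Every transgenic liver lay above every wildtype liver, with transgenic replicate 4 the lowest of its group. The normalized level averaged 10.91 ± 0.50 in transgenic livers (SD, n = 5) and 9.50 ± 0.22 in wildtype livers (SD, n = 3). The difference was 1.41 (SE 0.24, 95% interval 0.89 to 1.93), or 2.66-fold, with an adjusted p of 0.498 in limma. Without transgenic replicate 4 the difference was 1.63 and the adjusted p was 0.00124 in limma. Leaving out the lowest value of the higher group enlarges the difference in any case, so this call adds no support. No other alternative run called Gstm3. In the other livers Gstm3 was 79.6 to 151.3 in transgenic animals, below every Gpnmb-high liver, and 39.5 to 867.5 in wildtype animals, whose highest value lay above the 3 Gpnmb-high wildtype livers.

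Gstm2, the neighbouring mu-class gene, was 4875, 4003.7, 7079, 7965 and 9361.3 in transgenic livers, against 2437.6, 3522.2 and 4916.5 in wildtype livers. Wildtype replicate 6 lay above transgenic replicates 3 and 4, so the groups overlapped. The difference was 0.85 (SE 0.28, 95% interval 0.24 to 1.46), or 1.80-fold, with an adjusted p of 0.999 in limma. A second Gstm2 probe gave 0.90 (SE 0.34). The exact permutation test of the level over 56 assignments gave p = 0.107 (two-sided, adjusted over 3 tests 0.321, with 0.0357 the smallest p possible).

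Gstm1, another mu-class gene, was 25910.8, 23161.9, 29909.5, 24911.8 and 27152.4 in transgenic livers, against 21949.5, 23058.2 and 20060.9 in wildtype livers. All transgenic values were higher, but transgenic replicate 4 stood only just above wildtype replicate 5. The difference was small at 0.24 (SE 0.09, adjusted p 0.999 in limma). The mu-class genes lie side by side on chromosome 3 (RefSeq, GRCm38.p6): Gstm3 at 107963696 to 107969174, Gstm2 at 107981702 to 107986420, 12.5 kb apart, and Gstm1 at 108012250 to 108017973. They are related copies, and whether a bead probe of one also reads another was not tested.

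The RefSeq promoters of the mu-class pair are shown because Gstm3 led the named genes and Gstm2 lies beside it. Each runs from 250 bases before to 50 bases after the start, on the minus strand, in lower case, and capitals mark the longest run of letters that both windows share, 14 bases long. The run begins with ATG, and where the windows end decides which related genes show all of it. It begins at base 35 after the start in Gstm3 and at base 28 in Gstm2.
Gstm3 chr3:107969125-107969424: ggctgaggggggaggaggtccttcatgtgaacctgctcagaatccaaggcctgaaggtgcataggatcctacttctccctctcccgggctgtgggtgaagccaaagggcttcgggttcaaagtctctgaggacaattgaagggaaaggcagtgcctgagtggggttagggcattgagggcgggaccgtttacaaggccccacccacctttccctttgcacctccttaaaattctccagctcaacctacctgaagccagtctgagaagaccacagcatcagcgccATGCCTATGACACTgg
Gstm2 chr3:107986371-107986670: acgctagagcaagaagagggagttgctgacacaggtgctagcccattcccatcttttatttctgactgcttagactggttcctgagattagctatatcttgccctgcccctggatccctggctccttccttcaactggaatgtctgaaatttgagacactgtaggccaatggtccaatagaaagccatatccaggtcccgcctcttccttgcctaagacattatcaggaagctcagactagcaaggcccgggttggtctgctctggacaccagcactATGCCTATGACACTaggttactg

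Neither window holds the letters of the antioxidant response element to which NRF2 binds, TGACNNNGC, searched on both strands. These letters occur in 4071 of 32851 promoters of the table (12.4%). No match says only that the letters are absent from these 300 bases.

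Of 34 listed NRF2 targets 16 were on the array by name and 14 were measured, and 13 of these had the higher mean in transgenic livers, against 50.9% of all probes. The median difference was 0.29, beside 0.0026 for all probes, and the members ran from -0.08 to 1.41. None passed the adjusted threshold in limma. Gstm3, Gstm2 and Gstm1 had an unadjusted p under 0.05 (3.34% of all probes did), and Gstm3 and Gstm1 had all transgenic livers above (1.16% of all probes). The median rests in part on wildtype replicate 5. Without it 12 of 14 were higher with a median of 0.096, and with each of the other animals left out in turn the median was 0.21 to 0.43. The list was known from earlier results of these data to be higher in transgenic animals, and its count here is no independent support for that direction.

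The other members overlapped between genotypes. Gclm, the modifier subunit of the enzyme that makes the glutathione precursor, was 3173.7, 2913, 2887.3, 3462.5 and 3288.8 in transgenic livers, against 2292.4, 2546.5 and 3275.2 in wildtype livers. Only wildtype replicate 6 reached the transgenic range. Osgin1, an oxidative stress growth inhibitor, was 4447.8, 2846.9, 1965.8, 3668.1 and 1943.5 in transgenic livers, against 2853.8, 643.1 and 3278.2 in wildtype livers. Wildtype replicate 5 was lowest by far, and the difference of 0.64 (SE 0.46) was -0.10 without that animal. Srxn1, the sulfiredoxin that repairs peroxiredoxins, was 2648.3, 1095.6, 904.9, 1090.1 and 1041.4 in transgenic livers, against 1696.8, 589.3 and 929 in wildtype livers. Transgenic replicate 3 stood far above the rest of its group.

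The alpha-class transferases Gsta1 and Gsta2 differed by 0.40 (SE 0.19) and 0.34 (SE 0.19), and the pi-class Gstp1 by 0.21 (SE 0.14). The pentose phosphate enzymes Pgd, Tkt and Taldo1, which supply NADPH, differed by 0.36 (SE 0.24), 0.17 (SE 0.13) and 0.09 (SE 0.10), and the peroxiredoxin Prdx1 by 0.10 (SE 0.10). Without wildtype replicate 5 the differences were 0.18 for Gsta1, 0.093 for Gsta2, 0.045 for Gstp1, 0.069 for Srxn1, 0.20 for Pgd, 0.070 for Tkt and 0.055 for Taldo1, and without wildtype replicate 4 these 7 differences were larger, at 0.16 (Taldo1) to 0.80 (Srxn1). Srxn1 was 0.12 and Pgd 0.19 without transgenic replicate 3, and Gclm, at 0.24 (SE 0.12), was 0.13 without wildtype replicate 4. Ugt1a6a, a glucuronosyltransferase, was the member with the lower transgenic mean, at -0.08 (SE 0.11). The letters TGACNNNGC occur in 4 of the 16 promoters of the measured members (25%), those of Gclm, Srxn1, Pgd and Prdx1. The Gclm promoter, on the plus strand, is shown as a window that holds the letters. The match, in capitals, begins 134 bases before the start and lies on the opposite strand.
Gclm chr3:122245307-122245606: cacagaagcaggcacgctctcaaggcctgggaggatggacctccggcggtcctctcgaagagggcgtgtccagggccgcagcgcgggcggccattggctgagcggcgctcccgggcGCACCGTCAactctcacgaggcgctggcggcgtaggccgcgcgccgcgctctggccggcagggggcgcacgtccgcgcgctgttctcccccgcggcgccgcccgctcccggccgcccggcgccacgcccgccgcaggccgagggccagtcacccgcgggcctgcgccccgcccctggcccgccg

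**Figure D3:**
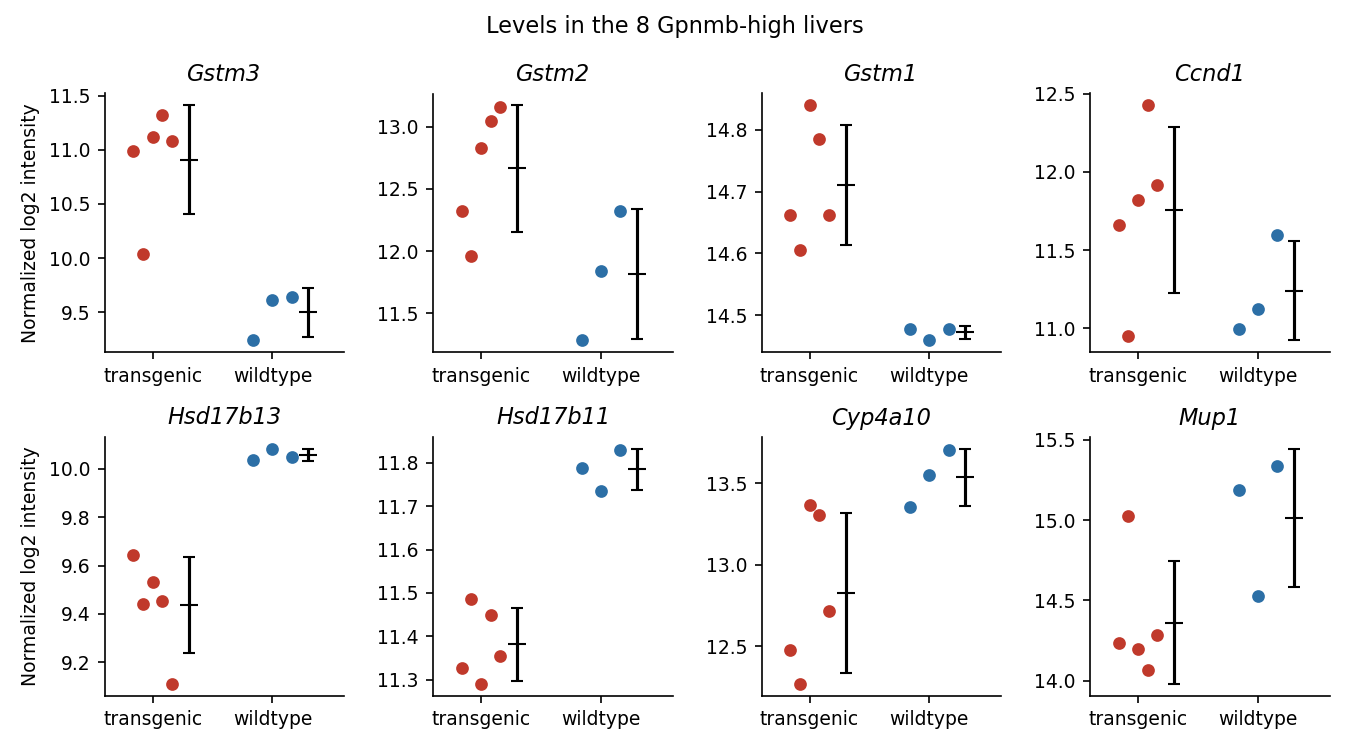
Normalized log2 intensity of 8 genes in the 5 transgenic (red) and 3 wildtype (blue) Gpnmb-high livers, with 1 point per animal and black bars for mean ± SD. Gstm3, Gstm1, Hsd17b13 and Hsd17b11 do not overlap between genotypes, while Gstm2, Ccnd1, Cyp4a10 and Mup1 do.

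The leading lower genes were a pair of lipid droplet enzymes. Hsd17b13, a liver retinol and steroid dehydrogenase, was 783.6, 697.5, 696.7, 699.5 and 503.3 in transgenic livers, against 1066.2, 1052.5 and 1105.9 in wildtype livers. The wildtype livers were close together and all above the transgenic ones. The level averaged 9.43 ± 0.20 in transgenic livers (SD, n = 5) and 10.06 ± 0.02 in wildtype livers (SD, n = 3), a difference of -0.62 (SE 0.12, 95% interval -0.88 to -0.37), or 1.54-fold lower, with an adjusted p of 0.828 in limma. Hsd17b11 was 2465.5, 2879, 2438.9, 2750.2 and 2508.5 in transgenic livers, against 3416.6, 3286.7 and 3568.2 in wildtype livers. Again the groups did not overlap, with a difference of -0.40 (SE 0.09) and an adjusted p of 0.999 in limma. Both genes lie on chromosome 5 (RefSeq, GRCm38.p6), Hsd17b13 at 103955442 to 103977388 and Hsd17b11 at 103989765 to 104021796, 12.4 kb apart. The Hsd17b13 promoter, on the minus strand, is shown because it holds TGACNNNGC, with the match in capitals from base 19 after the start. Whether the match bears on the level of the gene was not tested. The Hsd17b11 window has no match.
Hsd17b13 chr5:103977339-103977638: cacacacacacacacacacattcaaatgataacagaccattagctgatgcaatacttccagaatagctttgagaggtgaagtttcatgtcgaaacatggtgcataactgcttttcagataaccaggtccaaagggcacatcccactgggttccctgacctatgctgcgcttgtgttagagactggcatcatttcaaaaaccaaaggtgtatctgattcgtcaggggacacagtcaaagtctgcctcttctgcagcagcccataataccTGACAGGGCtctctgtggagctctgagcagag

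Urinary protein genes were lower on average with overlap. Mup1 was 18923.4, 27292.4, 18902.2, 15378.3 and 20932.9 in transgenic livers, against 33287.1, 24140.5 and 30408.7 in wildtype livers. Transgenic replicate 4 and wildtype replicate 5 crossed over, and the difference was -0.65 (SE 0.22, adjusted p 0.999 in limma). Mup2 was 84.2, 348.4, 135, 102.6 and 108.3 in transgenic livers, against 361.7, 186.1 and 445.2 in wildtype livers, a difference of -0.90 (SE 0.32). Mup4 differed by -0.60 (SE 0.18), while Mup3 differed by 0.01 (SE 0.10). The Mup genes are related copies, and whether a probe of one also reads another was not tested.

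The 3 Mup genes with lower means were the male-biased list's members with an unadjusted p under 0.05, against 3.34% of all probes. Of 23 listed male-biased genes 10 were measured, and 7 were lower and 3 higher in transgenic livers, with a median of -0.08. Leaving out 1 animal, an alternative chosen for the lists after seeing the data, moved the median over -0.24 (without wildtype replicate 5) to 0.015 (without wildtype replicate 6, with 5 higher and 5 lower). The list also holds Gstp1, given above. The fatty acid hydroxylases Cyp4a12a and Cyp4a12b differed by -0.10 (SE 0.15) and -0.06 (SE 0.46), the growth factor carrier gene Igfals by -0.09 (SE 0.17), the complement gene C6 by -0.02 (SE 0.19) and the protease inhibitor gene Serpina1e by 0.11 (SE 0.10). Of 20 female-biased genes 8 were measured and 7 were lower, with a median of -0.10. Cyp4a10, a fatty acid hydroxylase and PPARalpha target, led them at 5360.5, 4900.2, 10316.6, 9678.3 and 6610.8 in transgenic livers, against 9959.1, 11629.3 and 11615.8 in wildtype livers. Transgenic replicates 3, 4 and 7 were low and the other two near the wildtype values, with a difference of -0.71 (SE 0.23, adjusted p 0.999 in limma).

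Of the remaining leading genes, Pfkfb2, which makes the glycolysis regulator fructose 2,6-bisphosphate, was 121.7, 128.8, 127.6, 129.9 and 116.1 in transgenic livers, against 159.9, 217.8 and 174.5 in wildtype livers, without overlap (difference -0.37, SE 0.10). The cyclin gene Ccnd3 was dim, at 48.5 to 70.2 in transgenic livers, against 27.3 to 36.9 in wildtype livers, also without overlap. Its difference was 0.34 (SE 0.09) with the offset of 16, and 0.82 (SE 0.17) in the deposited intensities without further normalization. Ccnd1, the cyclin of the start of the cell cycle, had 3 probes with differences of 0.51 (SE 0.26), 0.61 (SE 0.23) and 0.58 (SE 0.25), with overlap in each.

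Further genes among the 24 of smallest p were higher with all transgenic livers above: Shroom1, Hivep2, Tarbp2, Dennd3, Acat3 and Gdi2, with differences of 0.28 to 0.35. A second Tarbp2 probe went the other way with overlap (-0.08, SE 0.12). Lower with all transgenic livers below were Larp4b, Fundc2, Taok3, Zfp318, Fam76b, Olfr441 and Zfp292, with differences of -0.38 to -0.28. Luc7l2, Cobll1 and Spaca6 overlapped. Over all probes, 1.16% had all transgenic livers above and 1.52% had all below. These genes were picked by smallest p for this same difference, so their lack of overlap adds no support. The same holds for the other genes and probes named by smallest p. Fundc2 was detected on 0 of 5 transgenic and 3 of 3 wildtype arrays, Olfr441 on 1 of 5 and 3 of 3, and Spaca6 on 3 of 5 and 0 of 3. These genes passed the filter through the genotype in which they were higher, so their differences are given as values only. The smallest p of all belonged to a probe without a gene symbol, scl45724.3.1_2-S, at 2595.3, 2874.3, 2322.2, 2453.6 and 2400.8 in transgenic livers, against 1512.8, 1730.3 and 1457.3 in wildtype livers. Its difference was 0.73 (SE 0.11, adjusted p 0.272 in limma), with no overlap.

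Gene groups of mitochondria and lipid metabolism had medians near 0. Of 39 measured oxidative phosphorylation genes 25 were higher and 14 lower (median 0.03), and of 33 mitochondrial ribosome genes 19 were higher and 14 lower (median 0.05). Of 9 genes of phospholipid synthesis, not all of them mitochondrial, 5 were higher (median 0.01). Among them Pcyt1a, which makes CDP-choline, was at 0.28 (SE 0.10) with no overlap. Lipogenesis had 6 of 8 higher (median 0.08), with the fatty acid synthase gene Fasn at 0.42 (SE 0.26), which was 0.093 without wildtype replicate 4 and 0.68 without wildtype replicate 5. Fatty acid oxidation and other PPARalpha targets had 8 of 11 lower (median -0.06). Cholesterol synthesis had 8 of 11 higher (median 0.07). In these lists 0 genes passed the adjusted threshold in limma.

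**Figure D4:**
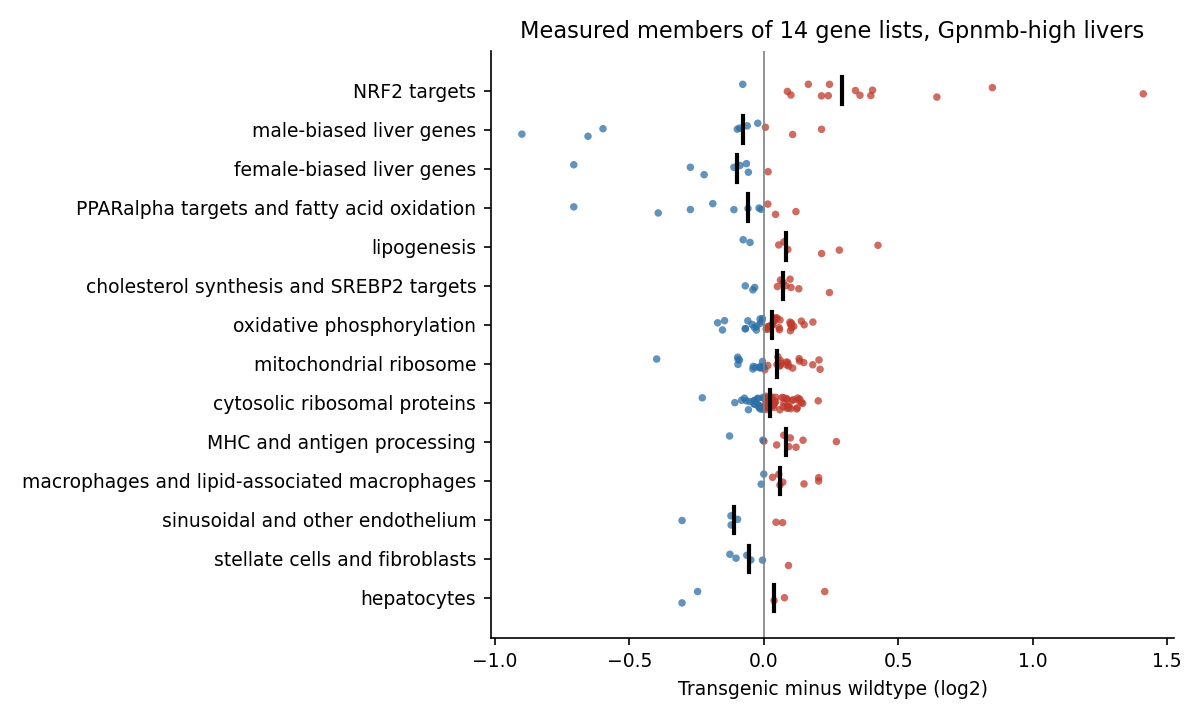
Difference (log2, transgenic minus wildtype) of each measured member of 14 gene lists in the Gpnmb-high livers, red above 0 and blue below, with a black bar at the list's median. The NRF2 targets have a median of 0.29, and the other lists have medians between -0.11 and 0.08.

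Other cell types were compared by the summed intensity of their measured markers. Hepatocyte markers summed to 60826.4 to 72495.3 in transgenic livers, against 53507.7 to 72394.4 in wildtype livers, with Apoa1, Trf, Serpina1a, Pck1 and Ass1 all measured. Endothelial markers summed to 6547.4 to 7952.9 in transgenic livers, against 7366.7 to 7901.6 in wildtype livers. Stellate cell and fibroblast markers summed to 6469.5 to 9032.4 in transgenic livers, against 7881.5 to 9906.1 in wildtype livers, with Acta2 not detected. Cholangiocyte markers summed to 1298.7 to 2722.4 in transgenic livers, against 1025.2 to 3480.9 in wildtype livers. They were 3 of 13 listed genes, Cldn4, Prom1 and Spp1, with Krt19 not detected. Spp1 is also a member of the macrophage list. All 4 ranges overlapped between genotypes, as did those of neutrophil, T and B cell, red cell, adipocyte and pancreas, gut or mesothelium markers. T and NK cells were read by 1 of 18 listed markers and B and plasma cells by 2 of 12. Cel was 6.2 to 32.8 in a pancreas, gut or mesothelium sum of at least 5916.5. Plin4 was 103.7 to 260.1 in an adipocyte sum of at least 9715.8. The rest of these sums came from other members, among them Krt8, Krt18 and Car3. Whether the sums trace those cell types was not tested. In bulk liver, fewer cells of a type and less RNA per cell cannot be told apart.

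Gstm2 was compared with every named gene over the 8 animals, as a description. The genes with the most similar pattern were Spen (Pearson r 0.951), Prex1 (0.950), Ankrd40 (0.929), Rnd2 (0.919) and Slc66a1 (0.908). Gstm3 followed Gstm2 with r 0.883, Gpnmb with 0.665 and Hsd17b13 with -0.743. The 8 arrays share their normalization, and the genotypes contribute to these values.

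The genotype difference was then set beside that in the other 8 livers, 2 transgenic and 6 wildtype, in a fit of all 16 arrays. Of 12450 probes 0 differed between these classes at the adjusted threshold (lowest adjusted p 0.329 in limma), and 756 did at an unadjusted p under 0.05 (6.07%). The genotype difference of the other livers themselves had 0 calls, and 871 probes at an unadjusted p under 0.05 (7%). The other livers hold 2 transgenic animals and include wildtype replicates 3 and 7 with intermediate Gpnmb.

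The named genes of smallest p were Eif4ebp3, an inhibitor of translation initiation, with -0.76 in Gpnmb-high livers, against 1.49 in the other livers (gap -2.25, SE 0.42), and Plppr1, with -0.41 in Gpnmb-high livers, against 0.59 in the other livers. Both had an adjusted p of 0.329 in limma and were picked after their values were seen. The genes that follow had an adjusted p of 0.807 or more. They, and those of the next paragraph, are a selection from the genes named here, so their gaps are not those of unselected genes. For Gstm3 the genotype difference was 1.41 in Gpnmb-high livers, against -0.14 in the other livers, a gap of 1.55 (SE 0.75). For Gstm2 the transgenic mean was higher in both classes, by 0.85 in Gpnmb-high livers and 0.47 in the other livers (gap 0.38, SE 0.46). For Gclm the genotype difference was 0.24 in Gpnmb-high livers, against -0.31 in the other livers (gap 0.56, SE 0.20). Osgin1 had 0.64 in Gpnmb-high livers, against -0.91 in the other livers (gap 1.55, SE 0.61). The 14 NRF2 targets had a median of 0.29 in Gpnmb-high livers, against -0.10 in the other livers.

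Hsd17b13 had the lower transgenic mean in both classes, with -0.62 in Gpnmb-high livers and -0.19 in the other livers (gap -0.43, SE 0.25). Ass1, the urea cycle enzyme argininosuccinate synthase, had -0.25 in Gpnmb-high livers, against 0.61 in the other livers (gap -0.86, SE 0.22). H2-DMb1, a peptide loading gene of MHC class II, had 0.27 in Gpnmb-high livers, against -0.56 in the other livers (gap 0.83, SE 0.28). The macrophage list, with a median of 0.06 in Gpnmb-high livers, had -0.50 in the other livers, where Lyz2 ran from 286 to 307.9 in transgenic and from 200.8 to 1699 in wildtype animals.

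**Figure D5:**
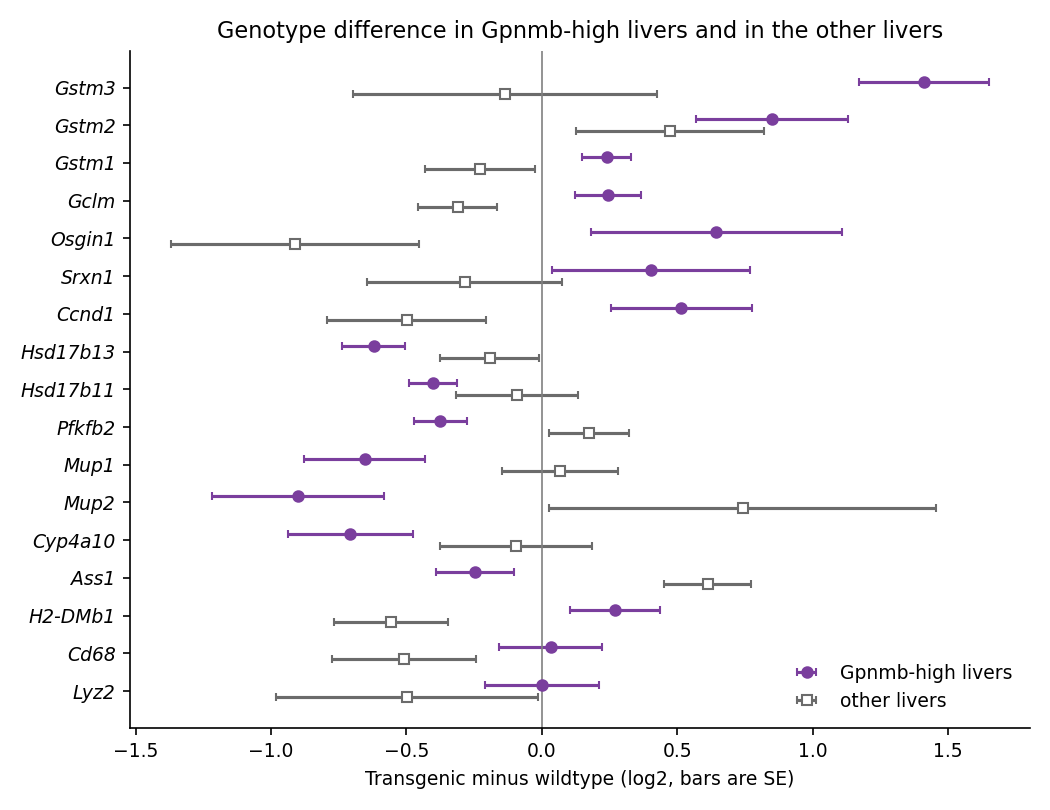
Genotype difference (log2, transgenic minus wildtype, bars are SE) of 17 genes in the Gpnmb-high livers (filled circles, 5 transgenic and 3 wildtype) and in the other livers (open squares, 2 transgenic and 6 wildtype). Gstm3 is at 1.41 and -0.14, Ass1 at -0.25 and 0.61, and no difference between classes passed the adjusted threshold.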

How the data were processed

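The authors deposited 1 table of probe intensity on a linear scale, 24048 probes by 16 animals. BeadStudio 1.5.1.3 was used, per the submitters' processing notes. Values below 0 show that background had been taken off. The mean intensity was 331.4 to 333.5 on all 16 arrays, so the deposited values already had a common scale. No source used here states how they were scaled. A further deposited table, whose 128 columns are named by chip position alone, was not used, since no label ties them to animals, and chip could not be fitted as a block.

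Intensities were corrected with the normexp model (saddle-point fit, offset 16), log2 transformed and quantile normalized over all 16 arrays in limma 3.58.1 (R 4.3.3). Detection meant a deposited intensity above 1.645 times that array's noise SD, and probes detected on at least 3 of the 8 arrays were tested with lmFit and eBayes (two-sided, no covariates, threshold 0.05 after Benjamini-Hochberg adjustment over every probe tested). The fit of all 16 arrays had a term for each of 4 groups, genotype by Gpnmb class, over probes detected on at least 3 arrays. Quantile normalization hides a shift shared by most genes, and the offset compresses folds of dim probes. Single values used exact permutation tests (scipy 1.17.1). The number of arrays limits the precision. The fit was tested on simulated data.

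Gene names came from matching the number in 9523 probe identifiers to RefSeq gene identifiers (GRCm38.p6), which named 8884 (93.3%), plus 9 by accession. The other 15155 probes keep their identifiers. A gene was read by its probe of highest mean. The animals, gene lists and tests were chosen with earlier results of these data known. Genes named are Gpnmb and Gstm2, the 24 named genes of smallest p (none passed the threshold), the first 3 unnamed probes in each direction, up to 2 members per list by smallest p, all measured members of the NRF2, male-biased and macrophage lists, and the 5 genes most like Gstm2. Alternatives covered background, offset, normalization, filter, the number in the sample title (whose meaning the labels do not give), weights, variance model, Gpnmb level and single animals.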

Additional observations from a re-analysis of the deposited data

Results flagged for a closer look

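Among the 5 transgenic livers, 7 of 103 genes and probes examined had 1 animal whose normalized log2 level lay far from the others by Dixon's ratio (above 0.71). Chance marks about 1 in 20 such groups. Gstm3 was 10.04 in transgenic replicate 4, against 10.99 to 11.32 in the others. Mup1 was 15.03 in the same animal, against 14.28 or less in the others. Srxn1 was 11.47 in transgenic replicate 3, against 10.09 or less, and Ass1 was 13.08 there, against 13.45 or more. Luc7l2 was 7.55 and Fcgr2b, an Fc receptor gene of sinusoidal endothelium, 10.32 in transgenic replicate 6, against at most 7.17 and 9.84 in the others. Zfp318 was 8.54 in transgenic replicate 7, against 8.67 or more. Replicates 3, 4 and 6 had 2 such values each, replicate 7 had 1 and replicate 5 had 0.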

How the results depend on the processing

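Between genotypes, the count of called probes was 0 under every alternative run except 3. With animals above a Gpnmb intensity of 2000 it was 1, the unnamed probe scl46938.9_3-S (difference -1.36, adjusted p 0.0211 in limma), named here after its values were seen. Leaving out 1 animal gave 0 to 1, with that same probe without wildtype replicate 4 (-1.41, adjusted p 0.00798) and Gstm3 without transgenic replicate 4 (1.63, adjusted p 0.00124). Probes at an unadjusted p under 0.05 numbered 952 with no filter on dim probes, 646 with array weights, 250 with the spread shared over 16 arrays and 645 with animals above a Gpnmb intensity of 500, and 301 to 599 when 1 animal was left out (599 without wildtype replicate 4). For the difference between classes the count was 2 with floored intensities, quantile normalized (Plppr1 and scl38756.3.1_44-S, the probe named after its values were seen), and 0 to 1 when 1 animal was left out (scl17488.7_66-S, likewise, without transgenic replicate 2).

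Of 102 genes and probes, 79 kept their direction under every alternative run. The cause of the changes of sign was not tested. They include Osgin1 (0.64), Fundc2 (-0.35), Fcgr2b (-0.30), Plin4 (-0.30), Tarbp2 (0.29) and Acot3 (-0.27), beside smaller differences. With median scaling Lyz2 was 0.036, with the 8 arrays normalized alone 0.0024, and without further normalization of the deposited values 0.0032, where Cd68 was -0.012. With arrays of 1 title number averaged, Mup3 was -0.024, C6 0.023, Mmp12 -0.040, Cd63 0.064, Lyz2 0.21 and Cyp4a12b 0.018. With Gpnmb above 500, Mup3 was -0.079, C6 0.018, Cd63 0.51, Lyz2 0.58, Rab8b 0.15 and Serpina1e -0.047. With Gpnmb above 2000, Mup3 was -0.032, Igfals 0.0023 and Cyp4a12b 0.0050. Over all 16 animals, an alternative chosen after seeing the data, Fundc2 was 0.0096, Tarbp2 -0.014, Mup3 -0.19, Cd63 0.86, Lyz2 0.85, Plin4 0.14, Hmgcs1 -0.17, Ass1 0.058, Rrm2 0.050, Rab8b 0.19, Fcgr2b 0.066, Serpina1e -0.26 and another acute phase gene, Serpina3n, 0.017. Leaving out 1 animal moved Mup3 over -0.040 to 0.051, Cyp4a12a over -0.18 to 0.037, Cyp4a12b over -0.42 to 0.40, Igfals over -0.32 to 0.069, C6 over -0.13 to 0.13, C1qb over -0.0061 to 0.12, Spp1 over -0.15 to 0.82, Mmp12 over -0.063 to 0.25, Cd68 over -0.092 to 0.18, Cd63 over -0.098 to 0.16, Lyz2 over -0.12 to 0.16, Osgin1 over -0.10 to 1.06 and Acot3 over -0.52 to 0.021. Gstm2 without wildtype replicate 4 was 0.58 (unadjusted p 0.0655).

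Title numbers occur in 1 genotype each among these 8 animals, so number and genotype cannot be told apart at that level. With the number as a random block (correlation -0.05), 0 probes were called and 456 had an unadjusted p under 0.05. No paired analysis of these 8 was possible because the genotypes share no title number among them. Over all 16 animals, title numbers 9, 12 and 13 occur in both genotypes, and the fit of all 16 arrays had no term for them. Mup1, near the ceiling that quantile normalization sets, was -0.54 in deposited intensities.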

Other observations

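Genes of translation, protein quality control and antigen presentation had small differences in the Gpnmb-high livers. Of 65 measured cytosolic ribosomal protein genes 44 were higher and 21 lower in transgenic livers (median 0.02), and of 12 proteasome genes 9 were higher (median 0.04). Of 10 genes of MHC and antigen processing 8 were higher (median 0.08), and of 9 interferon response genes 7 were lower (median -0.04). Complement and coagulation genes had 6 of 8 lower (median -0.05), with the mannose-binding lectin gene Mbl1 at -0.31 (SE 0.12). In these lists 0 genes passed the adjusted threshold in limma.

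Prom1, a surface protein of progenitor-like and biliary cells, was 865.5, 382.2, 650, 931.9 and 601.2 in transgenic livers, against 332.4, 739.6 and 244.8 in wildtype livers. Wildtype replicate 5 lay among the transgenic values, and the difference was 0.71 (SE 0.33, adjusted p 0.999 in limma), which was 1.15 without that animal and 0.38 without wildtype replicate 6.

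The unnamed probe scl24578.6.1_109-S, detected on 2 of 5 transgenic and 3 of 3 wildtype Gpnmb-high arrays, was at most 42.1 in transgenic Gpnmb-high livers, against 59.7, 290.9 and 75.8 in wildtype Gpnmb-high livers. In the other livers it was 5288.4 to 6522.4 in transgenic animals, against 71 to 4883.4 in wildtype animals. Its genotype difference was -1.13 in Gpnmb-high livers, against 2.17 in the other livers (unadjusted p 0.028 for the difference between them, adjusted p 0.812 in limma).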
